A study of Mus musculus with 6 samples.

Results

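Peaks of histone 3 lysine 27 acetylation (H3K27ac) whose nearest gene is a noncoding RNA gene made up 6748 of the 46988 peaks of control quadriceps (14.4%) and 5759 of the 40721 peaks of detrained quadriceps (14.1%). They were chosen as the rows of both peak tables whose gene type was noncoding RNA, microRNA or small nucleolar RNA (snoRNA) and that carried a gene name. The control peaks belonged to 1867 genes and the detrained peaks to 1761, of which 1610 had a peak in both lists. In the tables the gene type column read ncRNA for 6691 control peaks and snoRNA for 57, and no peak was filed as miRNA, so the peaks were sorted further by gene symbol. The mice were male C57BL/6J, bought at 7 to 8 weeks of age. Detrained mice had a running wheel for 4 weeks from the age of 8 weeks and were killed 72 hours after the last bout, while control mice had no exercise. Each group had 2 H3K27ac libraries and 1 input library, and each H3K27ac library came from the quadriceps of a single animal. No transgene or agent was used, and the strain label of the inputs read C57BL/7 and C57BL/8 where that of the H3K27ac libraries read C57BL/6.

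H3K27ac lies on the histones of active promoters and enhancers, and broad domains of it cover genes that a tissue transcribes strongly. MicroRNAs are cut from longer primary transcripts by nuclear processing and then pair through their seed, near the 5′ end, with messenger RNAs that they silence. In skeletal muscle the miR-1, miR-133 and miR-206 families are made from shared primary transcripts that muscle transcription factors control. Long noncoding RNAs act in many ways, as scaffolds of nuclear bodies, as hosts of snoRNAs or microRNAs, or through the act of their own transcription.

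Mature microRNAs are shown for the muscle loci and for the loci with the most H3K27ac, because the peaks described next carry their names. Of 29 such genes with a peak, 23 had a mature form in RefSeq (GRCm38.p6), and the seed (bases 2 to 8) is in capitals. The muscle microRNA hairpins with a form kept were Mir1a-1 at chr2:180389048-180389124 and Mir206 at chr1:20679010-20679082. The 3p form of miR-1a was not among the sequences, so only its 5p form is printed.
miR-1a-1-5p: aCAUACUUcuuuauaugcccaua
miR-206-5p: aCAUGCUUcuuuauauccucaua
miR-206-3p: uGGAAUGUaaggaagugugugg
The miR-30 forms shared 1 seed over 3 genes, and miR-29a and miR-29b shared 1 seed over 3 genes.
miR-30a-5p: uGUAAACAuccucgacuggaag
miR-30c-5p: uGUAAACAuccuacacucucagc
miR-30e-5p: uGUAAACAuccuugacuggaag
miR-29a-3p: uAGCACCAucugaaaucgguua
miR-29b-3p: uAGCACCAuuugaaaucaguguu
These further forms belong to other microRNA genes studied in muscle with a shared peak whose groups did not overlap in tags per kb.
miR-21a-5p: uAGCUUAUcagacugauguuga
miR-26a-5p: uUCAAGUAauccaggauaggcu
miR-214-3p: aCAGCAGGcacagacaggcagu
miR-199a-5p: cCCAGUGUucagacuaccuguuc
miR-181a-5p: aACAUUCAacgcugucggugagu
These forms name the microRNA peaks with the most tags, and miR-6338 shared its seed with miR-29b-2-5p.
miR-1191b-5p: uCAGGCUAcagagcgagaaccu
miR-1904: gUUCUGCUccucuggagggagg
miR-196a-5p: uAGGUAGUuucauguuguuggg
miR-6338: cUGGUUUCucucauuugugcu
miR-29b-2-5p: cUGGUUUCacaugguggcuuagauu

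The H3K27ac libraries held 20805019 to 22400894 tags, and the inputs 10812470 tags in control and 21298438 in detrained mice. The control libraries are called C2 and C3 here and the detrained libraries Ex1 and Ex2, as in the tables. Distances run from a gene's start site to the centre of the peak, and negative ones lie upstream. Values are tags of all H3K27ac libraries of a group per 10000000 total tags (pooled tags) or tags per kb of peak per 10000000 total tags in each library (tags per kb). The tables of the groups were normalized separately and gave no counts per library, so no test between groups was made, and an exact permutation test of 2 against 2 libraries could not have gone below a two-sided p of 0.33. In bulk tissue fewer cells with the mark and less mark per cell cannot be told apart. Of 10 myofibre markers, 9 had a peak in each list, with 6253 summed pooled tags in control and 6784 in detrained mice. Myh4, the gene of the fastest myosin, gave 79.2 and 800 of these, from 3 control peaks and 1 detrained peak. Marker sums count peaks by gene name only, and control peaks with another name at Myh4 were not looked up. Of the 9 markers, 6 had fewer pooled tags in detrained mice. Endothelial markers summed to 3236 and 3494, fibroblast markers to 1567 and 1876, blood markers to 150 and 265 and the satellite cell marker Pax7 to 104 and 166. Smooth muscle markers summed to 306 and 276, neuron markers to 387 and 359 and liver markers to 359 and 375, all of the last from Apoa1, while neither adipocyte marker had a peak in either list. Their part in the differences described was not tested.

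By symbol, 1510 control peaks and 1261 detrained peaks lay nearest to a microRNA gene, of which there were 473 and 413. Genes of snoRNAs and the related small Cajal body RNAs had 60 and 46 peaks. Host genes, whose introns carry snoRNAs or microRNAs, were taken as symbols that start with Snhg or end in hg, and Gas5. They had 28 and 24 peaks. Hosts with other symbols, as Dleu2, Carmn and Lincmd1, were counted with the other noncoding RNAs. The other noncoding RNAs, mostly long, had 5150 and 4428 peaks at 1344 and 1302 genes. Noncoding RNA peaks were 1477 bp long at the median in the control list and 1787 bp in the detrained list, against 1585 and 1801 bp for peaks nearest to protein-coding genes. Their median was 36.2 pooled tags in control and 48.0 in detrained mice, against 47.7 and 60.2 for protein-coding genes. Host genes stood at the other end, with medians of 104 and 127. An overlap of 1 bp or more with the other list was found for 68.6% of the noncoding RNA peaks of control mice, where 72.1% of all control peaks had one. For detrained mice it was 78.4%, where 82.0% of all detrained peaks had one. The 2119 peaks found in control mice only were weak, with a median of 14.3 pooled tags against 59.7 for those that overlapped. The 1242 found in detrained mice only had a median of 18.1, against 63.7.

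Most noncoding RNA peaks lay far from the start site of the gene that names them. The median distance was about the same in both lists, 28896 bp for control peaks and 28761 bp for detrained peaks, and 14592 and 13168 bp for protein-coding genes. Within 10 kb of the start lay 27.1% of the control and 27.6% of the detrained peaks, against 42.7% and 45.0% for protein-coding genes. Beyond 100 kb lay 17.7% and 17.8%, against 9.66% and 9.31%. Host genes, with median distances of 1780 and 1796 bp, and snoRNAs, with 11530 and 9490 bp, lay closer to their start than protein-coding genes did.

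**Figure D1:**
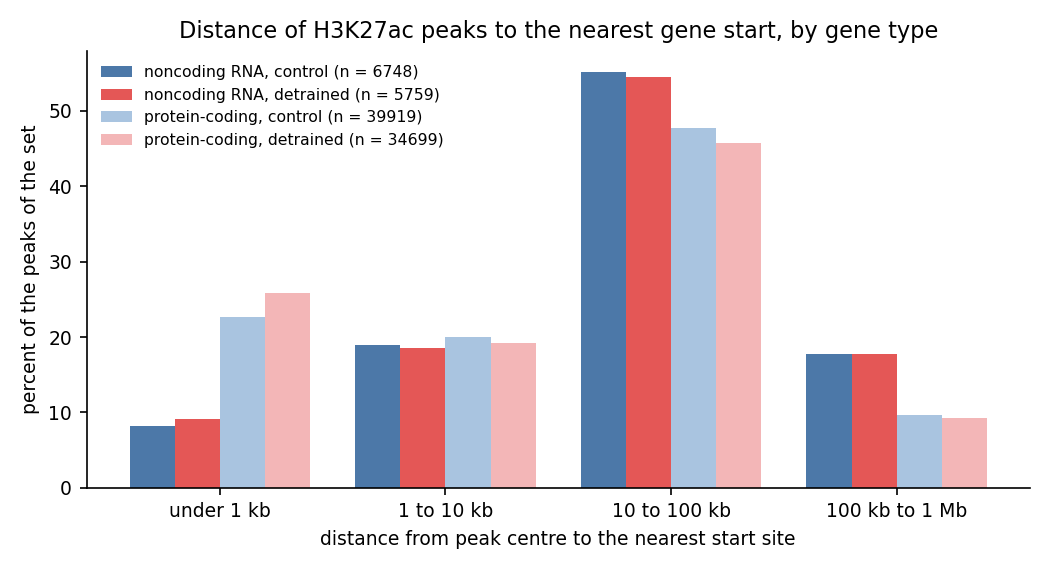
Percent of H3K27ac peaks in each class of distance from the peak centre to the start site of the nearest gene, with bars for noncoding RNA and protein-coding genes in control and detrained mice. Under 1 kb stood 8.20% and 9.12% of the noncoding RNA peaks, against 22.6% and 25.9% of the protein-coding peaks, and the 0.0148% and 0.0174% of noncoding RNA peaks beyond the last class are not drawn.

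The authors' annotation placed 46.6% of the control noncoding RNA peaks between genes and 42.5% in introns, against 27.8% and 52.3% for protein-coding genes. Promoters held 346 control peaks (5.13%) and 330 detrained peaks (5.73%), against 12.2% and 13.7% for protein-coding genes. Many of these peaks sat in or on a protein-coding gene. The centre lay inside a RefSeq protein-coding gene for 40.3% of the control and 38.9% of the detrained noncoding RNA peaks, and for 66.1% and 63.8% of those nearest to a microRNA. Of the 346 control promoter peaks, 147 (42.5%) also held the start of a protein-coding gene, and 150 of 330 (45.5%) did so in detrained mice. Of the 1510 control peaks nearest to a microRNA, 112 (7.42%) held the hairpin of that microRNA, and 117 of 1261 (9.28%) did so in detrained mice. Counted over all 1228 RefSeq microRNA genes, control peaks held 184 (15.0%) whole, detrained peaks also held 184, and 167 were held in both lists. For RefSeq snoRNA genes the counts were 68 and 63 of 1340. A peak's gene name is that of the nearest start site, and no readout here ties the H3K27ac to that gene.

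The strongest noncoding RNA peak was the strongest of all peaks in each list. It covered Neat1, the RNA that builds nuclear paraspeckles, over 57233 bp at chr19:5796253-5853486 (mm10), with 6668 pooled tags in control and 6610 in detrained mice. Its density was 111 and 122 tags per kb in control and 124 and 115 in detrained mice, so the groups overlapped. Malat1, an abundant nuclear RNA beside it, named no peak, and the Neat1 peak began inside it in both lists. Mir1191b named a 30926-bp peak over Nfic, a transcription factor gene, with 120 and 145 tags per kb in control and 113 and 108 in detrained mice. The groups did not overlap there, with a log2 ratio of -0.25 against a difference between the control libraries of 0.28, and they overlapped once all overlapping peaks were summed, at -0.10. Mir1904 named a 30874-bp peak in an intron of Pde4d, a cyclic AMP phosphodiesterase gene, with 82.4 and 96.7 against 93.2 and 93.7 tags per kb. These groups overlapped.

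Of the strongest peaks, some were cut differently in the 2 lists. 2310001H17Rik had 1 control peak of 29187 bp with 4054 pooled tags, which was split in detrained mice into 2 peaks of 29325 bp and 3929 pooled tags in all. The shared piece gave a log2 ratio of -0.70 in tags per kb, whereas the summed tags gave -0.043 with overlapping groups. Mir196a-2 named a control peak of 32027 bp and 2942 pooled tags that covered Hoxc11, Hoxc10 and Hoxc9, genes of limb and trunk position. In detrained mice 4 peaks with 2624 pooled tags covered the same place, and they were named Hoxc11, Hoxc10, Mir196a-2 and Gm36878. Mir6338 named a detrained peak of 39657 bp in Smtnl2 with 2256 pooled tags, overlapped in control by 2 peaks with 2717.

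Of 13 muscle microRNA genes and hosts in the list, 6 named a peak. The Mir1a-1 peak spanned 16265 bp at chr2:180383320-180399585 and also held the hairpin of Mir133a-2. C2 and C3 had 62.6 and 76.6 tags per kb there, and Ex1 and Ex2 had 78.5 and 77.2. Both detrained libraries lay above both controls, but C3 and Ex2 differed by far less than C2 and C3 did, and the log2 ratio of 0.17 was below the 0.29 between the control libraries. In tags per peak the groups overlapped. Upstream of it a 24719-bp peak carried the name of the host transcript, Mir1a-1hg, with 61.3 and 76.2 tags per kb in control and 58.3 and 56.8 in detrained mice. There the detrained libraries lay below both controls, with a log2 ratio of -0.25 and 0.31 between the control libraries. The other copy, Mir1a-2 in an intron of Mib1, had 91.4 and 114 tags per kb in control and 95.6 and 90.8 in detrained mice, which overlapped. In tags per peak it was lower without overlap, at -0.25, with 1130 and 1405 against 1086 and 1032 tags.

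Mir486, a microRNA in an intron of the muscle ankyrin gene Ank1, lay in a peak of 11126 bp at chr8:23136856-23147982 in control mice. Its density was 84.2 and 99.0 tags per kb. In detrained mice a 13993-bp peak at chr8:23136487-23150480 held the same hairpin with 74.6 and 69.8 tags per kb, but it was named Mir3107, which RefSeq lists as mir-486b, the hairpin on the other strand. The pooled tags were 1018 and 1009, so the lower density came with a longer peak. Mir22, listed as a muscle microRNA, named no peak, and its hairpin lay in a peak named Mir22hg with 126 and 148 tags per kb in control and 130 and 117 in detrained mice.

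Mir206, the miR-1 relative of slow and regenerating fibres, had only a small peak at -4188 bp in control mice, at chr1:20674509-20675136. That peak of 627 bp held 64 tags over both libraries, which is 23.1 tags per kb with an exact 95% Poisson interval of 17.8 to 29.5. In detrained mice the peak at chr1:20673717-20675580 spanned 1863 bp and held 319 tags, or 39.7 tags per kb with an interval of 35.4 to 44.3. The libraries had 23.8 and 23.1 tags per kb in control against 39.6 and 40.0 in detrained mice. These intervals cover counting error only, and the peaks differed too much in length to count as a shared peak. Lincmd1, the long noncoding RNA that hosts Mir206 and Mir133b, was chosen for mention after its values were seen. It had 1 control peak with 10.4 pooled tags and 2 detrained peaks with 71.8 and 28.3. In density the control peak had 17.4 and 16.6 tags per kb, and the larger detrained peak 23.5 and 21.4. Neither hairpin of this locus lay in a peak of either list. Mir133a-1 named a weak control peak of 17.6 pooled tags, and its hairpin lay in the detrained Mir1a-2 peak. Mir208a, Mir208b and Mir499, which sit in slow and cardiac myosin genes, named no peak, and none of their hairpins lay in a peak of either list.

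Of 34 other microRNA genes studied in muscle, 19 named a peak, with 62 peaks in control and 61 in detrained mice. For 14 of these a shared peak could be compared, and both detrained libraries lay above both controls in 3, below in 5 and among them in 6. Over all shared peaks 21.3% lay above and 27.2% below. Their median log2 ratio was -0.12, against -0.026 over all shared peaks. Mir378a, in an intron of the metabolic coactivator gene Ppargc1b, had 10 peaks in each list with 2794 and 2816 summed pooled tags. The peak on the hairpin gave 88.5 and 113 tags per kb in control and 108 and 98.5 in detrained mice, with overlapping groups. Mir23a, in 1 cluster with Mir27a and Mir24-2, had 118 and 122 against 136 and 110 tags per kb in its strongest shared peak, with overlapping groups. Mir30a and Mir30d gave log2 ratios of -0.15 and -0.17, also with overlapping groups. Mir181a-1 and Mir199a-2 overlapped in tags per kb, and in tags per peak they gave -0.65 and 0.17 without overlap.

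The 8 that did not overlap were read together with the length of the peaks. The Mir29b-1 peak, at -60807 bp, had 53.7 and 52.6 tags per kb in control and 72.9 and 70.2 in detrained mice. Its log2 ratio was 0.43 in tags per kb and 0.30 in the tags of all overlapping peaks, higher in both libraries on both scales. The Mir214 peak in Dnm3, 76718 bp from the start, had 53.9 and 49.8 against 35.0 and 36.6 tags per kb, with log2 ratios of -0.53 in tags per kb and -0.42 in tags per peak. Mir29b-2 had 42.8 and 43.1 against 42.7 and 36.2 tags per kb, so Ex1 stood at the level of C2, and the log2 ratio of -0.13 was below the 0.24 between the detrained libraries. Its ratio in tags per peak was -0.48 without overlap.
For 5 others the sign of the ratio turned with the scale. Mir21a was lower in tags per kb at a peak at -13180 bp, with 72.2 and 85.9 against 59.6 and 64.1. That peak had grown from 4594 to 7876 bp and held more tags, with a log2 ratio of 0.43 in tags per peak. The peak on the Mir21a hairpin had 52.7 and 50.1 against 54.7 and 50.6 tags per kb, with overlapping groups. Mir26a-1, on its own hairpin in Ctdspl, gave -0.41 in tags per kb and 0.12 in tags per peak. Mir222 gave -0.18 and 0.11. At Mir26a-1 and Mir222 the groups overlapped in tags per peak. Mir181a-2 and Mir199a-1 each gave 0.14 in tags per kb, and -0.41 and -0.20 in tags per peak. This Mir199a-1 peak lay 33291 bp from the start. The peak on the Mir199a-1 hairpin had 38.8 and 37.7 against 38.2 and 38.4 tags per kb, with overlapping groups.

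**Figure D2:**
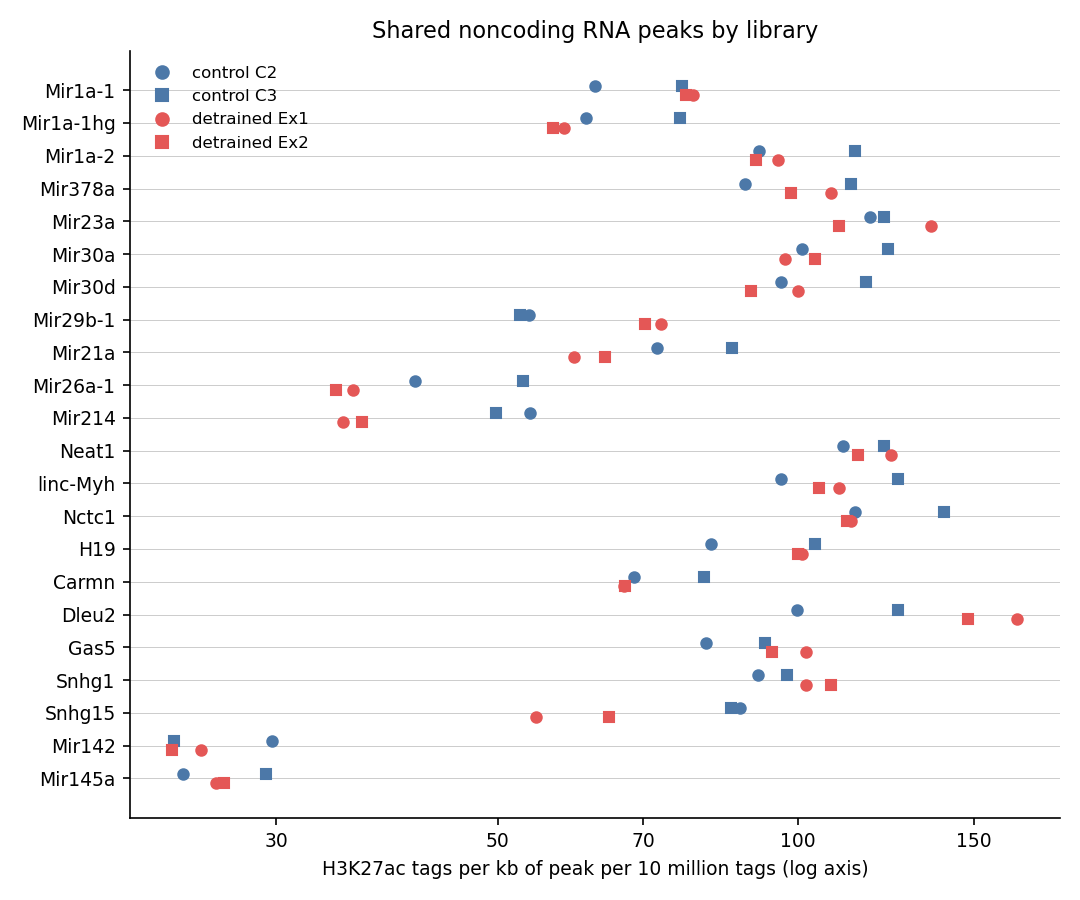
H3K27ac tags per kb per 10000000 tags (log axis) of the shared peak with the highest density at 22 noncoding RNA loci, with 1 point per library, controls in blue and detrained mice in red. The groups overlap at Neat1, linc-Myh, Mir378a and Mir1a-2. The detrained libraries lie to the right of both controls at Mir29b-1 and to the left at Mir214. Dleu2 and Snhg15 also stand apart, but the sign of their ratio turns with the scale.

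Among long noncoding RNAs of muscle, linc-Myh (2310065F04Rik), which lies in the fast myosin gene cluster, was among the 5 strongest noncoding RNA peaks in control mice and stood at rank 11 among all control peaks. Its peak covered the whole gene, at chr11:67103751-67129856 in control and chr11:67109412-67129917 in detrained mice, with 96.1 and 126 tags per kb in control and 110 and 105 in detrained mice. The groups overlapped, with a log2 ratio of -0.031. A second detrained peak, named Mir6923, lay over part of the control peak, and the ratio was -0.38 in tags per peak and -0.14 with all overlapping peaks summed, where the groups overlapped too. A further peak of 2310065F04Rik at -21452 bp had 94.6 and 125 against 109 and 105 tags per kb, again overlapping. Nctc1, a noncoding RNA near the mesodermal enhancers of the Igf2 and H19 locus that was named after its values were seen, had a peak at chr7:142549454-142562026 with 114 and 140 tags per kb in control and 113 and 112 in detrained mice. Both detrained libraries lay just below C2, and the log2 ratio was -0.17. A weaker Nctc1 peak at -7970 bp had 26.7 and 28.4 against 30.4 and 30.1 tags per kb and a log2 ratio of 0.14, but fewer pooled tags in detrained mice, with 119 against 98.9 and a shorter peak.

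Of 13 imprinted or X inactivation RNAs, 7 named a peak and 6 had a shared one. H19, an imprinted RNA of growing tissue, named a peak at -21971 bp with 81.9 and 104 against 101 and 100 tags per kb, and the groups overlapped. H19 was lower without overlap in tags per peak, at -0.27. Kcnq1ot1, Peg13 and Ftx gave log2 ratios of -0.11, 0.021 and -0.018 with overlapping groups in tags per kb. In tags per peak Kcnq1ot1 gave 0.23 and Ftx -0.20, both without overlap. Airn, the antisense RNA of Igf2r, had 49.0 and 52.1 against 57.0 and 57.8 tags per kb but a log2 ratio of -0.14 in tags per peak. Jpx, a neighbour and activator of Xist, had 48.4 and 54.7 against 80.6 and 76.4 tags per kb, a log2 ratio of 0.61. Its peak had shrunk from 3905 to 2220 bp, and in tags per peak the log2 ratio was -0.21. Meg3 had a weak promoter peak of 22.6 pooled tags in control mice only. Xist, Tsix, Rian, Mirg, Nespas and Snhg14 named no peak in either list.

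Of 22 abundant or much studied long noncoding RNAs, 13 named a peak and 9 had a shared one, with 4 higher, 1 lower and 4 overlapping in tags per kb, beside 21.3% higher and 27.2% lower over all shared peaks. Carmn, a smooth muscle and cardiac RNA that hosts Mir143 and Mir145a, had 68.5 and 80.6 against 67.0 and 67.1 tags per kb, lower in both libraries with log2 ratios of -0.15 and -0.13 in tags per kb and per peak. The control libraries differed by 0.23, and without C3 the ratio in tags per kb was -0.031. Rpph1, the RNA of ribonuclease P, was higher on both scales, at 0.13 and 0.19. Dleu2, host of Mir15a and Mir16-1, had 99.8 and 126 against 166 and 148 tags per kb, a log2 ratio of 0.49, but -0.23 in tags per peak and -0.10 when all overlapping peaks were summed. Gas5 and Pvt1 were higher in tags per kb at 0.18 and 0.19, while in tags per peak the values were -0.087 and -0.00013. Dancr, Epb41l4aos and Fendrr had overlapping groups in tags per kb, and in tags per peak Fendrr gave 0.31 without overlap. Tug1 named a promoter peak of 210 pooled tags in control mice, and the peak at that place in detrained mice was named Morc2a, a protein-coding gene. Hotairm1, an RNA of the Hoxa cluster, had 1 peak in each list with 174 and 245 pooled tags, 55.0 and 55.5 against 43.4 and 34.5 tags per kb, and 3161 bp grew to 6326 bp, so it did not count as shared. Hotair and Miat had peaks of 9.28 and 6.11 pooled tags in control mice only.

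Of 21 snoRNA hosts, 14 named a peak and 10 had a shared one, mostly on the promoter. Snhg1 had 91.1 and 97.4 against 102 and 108 tags per kb, higher on both scales with log2 ratios of 0.16 and 0.15. Snhg7 had 66.0 and 62.7 against 85.8 and 87.5, higher on both scales at 0.43 and 0.15. Snhg15 had 87.4 and 85.6 against 54.6 and 64.6, a log2 ratio of -0.54, while the peak had lengthened from 1258 to 1926 bp and the ratio in tags per peak was 0.073. The groups overlapped at Snhg3, Snhg4, Snhg6, Snhg8, Snhg18 and Snhg20 in tags per kb. Counted per peak, Snhg6 gave -0.21, Snhg8 0.058 and Snhg18 0.12 without overlap. Snhg12 named a promoter peak of 144 pooled tags in detrained mice, and in control mice the peak there had the name of Snora16a, a snoRNA gene. The pair had 62.6 and 67.3 against 105 and 103 tags per kb, a log2 ratio of 0.68, while the peak had shortened from 2475 to 1387 bp and the ratio in tags per peak was -0.15. Over all 17 shared host peaks the median log2 ratio was 0.035.

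Of 16 microRNA genes that mark other cell types, 5 named a peak. Mir142 of blood cells had 29.7 and 23.7 against 25.2 and 23.6 tags per kb, and Mir145a of smooth muscle had 24.2 and 29.3 against 26.1 and 26.6, both below the medians of 32.3 to 33.7 over shared noncoding RNA peaks and with overlapping groups. Mir145a was lower without overlap in tags per peak, at -0.54, with 75.7 and 91.5 against 56.7 and 57.7 tags. Mir126a of endothelium and Mir155hg of activated blood cells named peaks of 19.2 and 26.2 pooled tags in control mice only. Mir122, the liver microRNA, named 11 control and 8 detrained peaks, and the densest shared one lay at -79109 bp in Nedd4l, a ubiquitin ligase gene. It had 47.6 and 47.6 against 37.0 and 34.9 tags per kb, lower on both scales at -0.41 and -0.46. Mir143, Mir142hg, Mir155, Mir223, Mir150, the Mir124a genes and the Mir9 genes named no peak.

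The 3 microRNA genes and 5 other noncoding RNA genes with the most peaks of their type were looked at, and 6 of these 8 had a RefSeq protein-coding gene in the span of their peaks. 9430078K24Rik, in the span of Rad51b, named 59 control and 49 detrained peaks over 414 kb, with 6354 and 6642 summed pooled tags. Of its 35 shared peaks, 8 were higher and 10 lower in both libraries, with a median log2 ratio of -0.058, where 21.3% of all shared peaks were higher and 27.2% lower. 9530091C08Rik, in Rora, the gene of a circadian nuclear receptor, named 39 and 21 peaks over 301 kb with 2570 and 2034 summed pooled tags. All 39 and all 21 had their centre in Rora. Mir1904 in Pde4d named 26 and 22 peaks, and of its 12 shared peaks 6 were higher and 1 lower, with a median log2 ratio of 0.17. Mir6344, in a span of 542 kb with no RefSeq coding gene, named 23 and 17, and of its 8 shared peaks none was higher and 5 were lower, with a median of -0.27. Mir7661 in Itpr1, the gene of a calcium release channel, had 1 higher and 6 lower of 12, with a median of -0.19. Gm12159 over Ebf1, Gm12724 and Gm15713 in Zbtb20 had medians of -0.013, 0.038 and -0.016. Among smaller RNAs, Snora3 named 7 and 3 peaks, Snora31 and Snord104 3 each in both lists, and the host Mir99ahg 7 in both. The host Snhg3 named 5 and 4 peaks, and Snhg5 named 2 and 1.

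**Figure D3:**
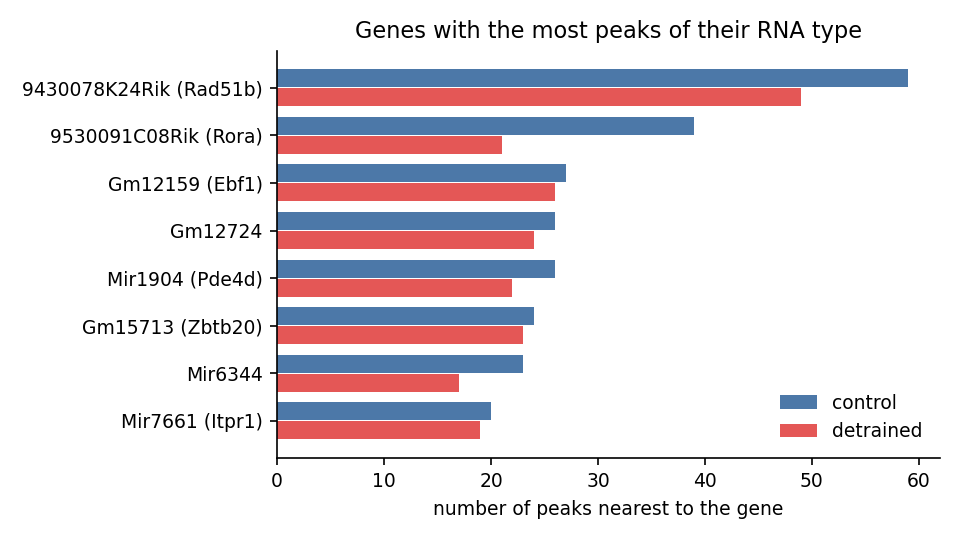
Number of H3K27ac peaks nearest to each of the 3 microRNA genes and 5 other noncoding RNA genes with the most peaks of their type, control in blue and detrained in red, with the coding gene in the span in brackets where RefSeq has one. Each of the 8 has fewer peaks in the detrained list, which was shorter as a whole (40721 against 46988 peaks), with 59 against 49 at 9430078K24Rik and 39 against 21 at 9530091C08Rik.

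Whether H3K27ac at noncoding RNA peaks differed after detraining was asked over 3393 shared peaks, pairs that covered at least 50% of each other one to one. C2 and C3 had a median density of 32.3 and 33.7 tags per kb, and Ex1 and Ex2 of 33.4 and 32.4, so the medians of the groups overlapped. Peaks nearest to protein-coding genes were denser, at 39.3, 41.5, 40.5 and 38.8 tags per kb. The median log2 ratio was -0.018 for noncoding RNA peaks, -0.027 for protein-coding genes and -0.026 over all shared peaks. It was -0.027 for microRNAs, -0.013 for snoRNAs, 0.035 for hosts and -0.016 for the other noncoding RNAs. The median absolute difference on the log2 scale was 0.16 between the means of the groups, 0.19 between C2 and C3 and 0.15 between Ex1 and Ex2.

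Both detrained libraries lay above both controls at 712 noncoding RNA peaks (21%), where 21.3% of all shared peaks did, and below both at 843 (24.8%), where 27.2% did. With at least 1.5-fold between the means, 41 were higher (1.21%, against 1.10% of all shared peaks) and 71 lower (2.09%, against 2.06%). These shares lay near those of all peaks. The split by direction depended on the scaling. Scaled to tags in listed peaks, 930 lay above (27.4%, against 27.9% of all shared peaks) and 673 below (19.8%, against 22%), with 60 (1.77%, against 1.70%) and 51 (1.5%, against 1.45%) past 1.5-fold. With the median of all shared peaks set to 0 the counts were 814 (24.0%, against 24.2%) and 750 (22.1%, against 24.2%), with 49 (1.44%, against 1.37%) and 60 (1.77%, against 1.72%). In tags per peak 999 lay above (29.4%, against 24.6% of all shared peaks) and 937 below (27.6%, against 28.8%), with 252 (7.43%, against 5.52% of all shared peaks) and 191 (5.63%, against 5.10%) past 1.5-fold. Leaving out C2 gave 1525 below (44.9%, against 45.5% of all shared peaks) and 139 lower by 1.5-fold (4.10%, against 4.09%). Leaving out C3 gave 1333 above (39.3%, against 38.7%) and 89 higher by 1.5-fold (2.62%, against 2.44%). Leaving out Ex1 gave 1329 below (39.2%, against 43.4%). Leaving out Ex2 gave 1218 above (35.9%, against 37.2%), 78 higher by 1.5-fold (2.30% in both) and 110 lower (3.24%, against 2.65%). Of the 112 peaks past 1.5-fold, 89 had changed in length in the direction opposite to the density, and 28 passed 1.5-fold the same way in tags per peak. Density is divided by length, so opposite directions are partly built into this choice. No share over all shared peaks is given for these counts. The highest ratios were 0.97 at Has2os, 0.96 at the promoter of E030011O05Rik and 0.86 at 1700104L18Rik. Has2os had 16.8 and 13.7 against 32.1 and 27.4 tags per kb, but in tags per peak the ratio was 0.26 with overlapping groups. E030011O05Rik had 30.3 and 30.8 against 62.3 and 56.8 tags per kb in a peak that was called at 2973 bp and then at 1497 bp, and the ratio in tags per peak was -0.027. The lowest ratios were -1.06 at D730045A05Rik, -0.97 at Gm38403 and -0.87 at Gm10390. Gm38403 had 47.2 and 57.3 against 24.8 and 28.3 tags per kb, and -0.14 in tags per peak with overlapping groups. Gm10390 had 34.8 and 42.9 against 21 and 21.1, and -0.51 in tags per peak.

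**Figure D4:**
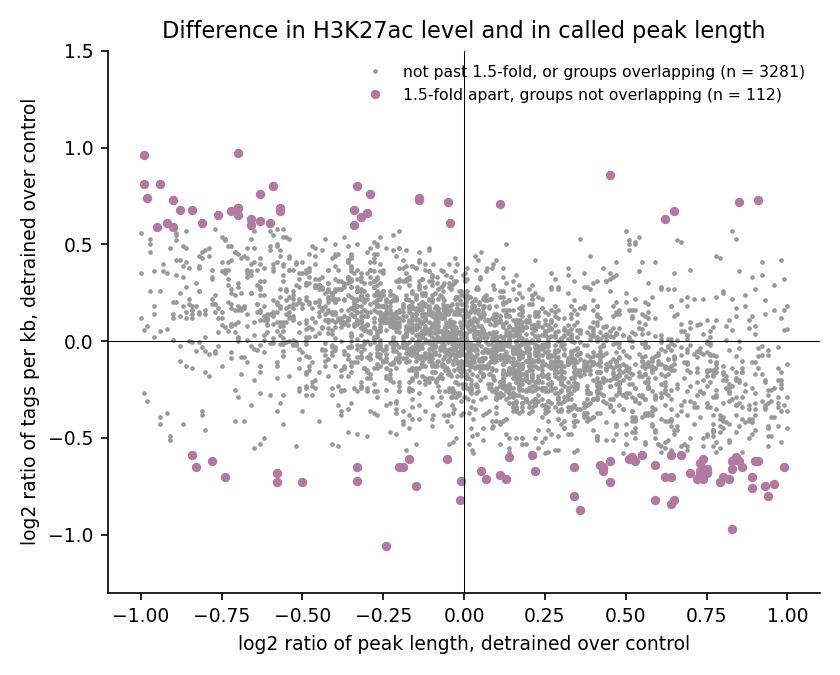
Log2 ratio of tags per kb against log2 ratio of called peak length, detrained over control, for the 3393 shared noncoding RNA peaks, with the 112 past 1.5-fold and not overlapping in purple. Most purple points lie in the upper left and lower right, where density and length differ in opposite directions (89 of 112). Density is divided by length, so this is partly built in.

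A difference was therefore followed further only where it reached 1.5-fold in the same direction, with groups not overlapping, on 3 scales, which are tags per kb, tags per peak and the summed tags of all overlapping peaks. The third scale was chosen after seeing the data, and for 24 of the 25 peaks that passed it gave the same ratio as the second to 2 decimals. At this level 9 noncoding RNA peaks were higher (0.265%, against 0.231% of all shared peaks) and 16 lower (0.472%, against 0.405%). At 1700104L18Rik, 38436 bp from Egln3, the gene of an oxygen-sensing prolyl hydroxylase, 2 neighbouring peaks were higher. The first had 34.7 and 29.5 tags per kb in control and 63.1 and 53.3 in detrained mice. The second had 28.9 and 29.0 against 50.5 and 45.4. A pair of peaks at 1700064J06Rik was higher as well, with log2 ratios of 0.71 and 0.73 in tags per kb and 0.82 and 1.63 in tags per peak. 2310069B03Rik, near Sema4f, had 22.1 and 28.1 against 41.1 and 41.3 tags per kb. Of microRNA names, Mir6351 and a weak Mir181a-1 peak at -345420 bp were among the higher ones, with log2 ratios of 0.74 and 0.67 in tags per kb and 0.60 and 1.32 in tags per peak.

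On the lower side D730045A05Rik, in an intron of Mapk4, had 41.3 and 35.9 tags per kb in control and 21.7 and 15.6 in detrained mice. Gm36738, a promoter peak 7291 bp from Rac2, had 51.9 and 46.0 against 24.6 and 34.1. Gm11665, within the atrial and embryonic light chain gene Myl4, had 24.7 and 33.1 against 19.6 and 16.4. Among the 3 microRNA names on this side, a further Mir214 peak 2630 bp from its start had 26.9 and 24.9 against 14.9 and 18.2 tags per kb, and a further Mir26a-1 peak within Ctdspl had 24.1 and 15.9 against 11.4 and 13.8. Mir7031, in Sh2b3, had 21.5 and 24.0 against 18.9 and 12.1. All 25 peaks held at most 232 pooled tags in control and 172 in detrained mice, so none of the strong loci above was among them.

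**Figure D5:**
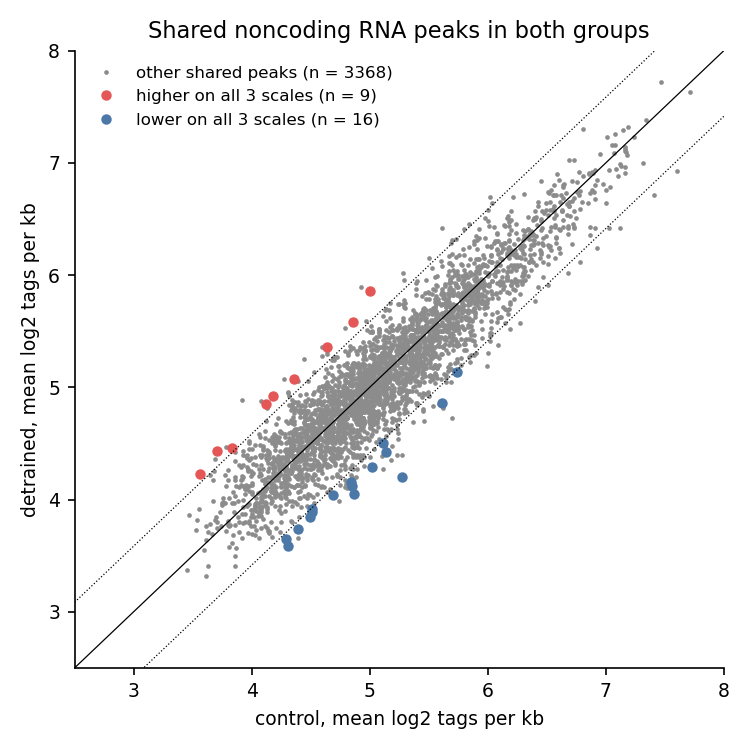
Mean log2 tags per kb of the 3393 shared noncoding RNA peaks in control (x axis) and detrained mice (y axis), with equality as a solid line and 1.5-fold as dotted lines. The 9 peaks higher (red) and 16 lower (blue) on all 3 scales lie in the lower and middle range, below the densest peaks.

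Of the noncoding RNA genes, 257 had peaks in control mice only and 151 in detrained mice only. Their peaks were weak, with medians of 17 and 20 pooled tags. At 48 of the 257 and 42 of the 151 a peak of the other list covered the same place under another name, as at Mir486, Tug1 and Snhg12. Over all shared peaks, 116 carried a noncoding RNA name in 1 list and another type of gene in the other.

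Promoter sequence was compared because H3K27ac covered some noncoding promoters and not others. Of 11588 RefSeq promoters of noncoding RNAs (250 bases before to 50 after the start), 18.5% were held whole by a control peak and 18.3% by a detrained peak, against 46.4% and 46.1% of 21263 protein-coding promoters. The 1831 noncoding promoters in a peak of both lists had a median of 57.7% G and C and 13.0 CpG in 300 bases, against 47.3% and 3 for the 9157 in neither. An E-box, CANNTG, the site of myogenic helix-loop-helix factors, stood in 67.9% of the former, 80.7% of the latter and 72.3% of all 32851 promoters. The form CAGCTG, which every E-box count includes, stood in 20.5%, 16.8% and 16.3%. A MEF2 motif stood in 1.31%, 0.590% and 0.557%, and TATAAA on either strand in 9.07%, 17.1% and 13.6%. E-box and MEF2 patterns read the same on both strands, and a match is only a description of letters. Of the genes described above, linc-Myh had a promoter at chr11:67120031-67120330 with 46.7% G and C and neither motif, Nctc1 had 1 E-box at chr7:142558549-142558848 and Snhg1 had 1 MEF2 motif at chr19:8723237-8723536. They are printed on their own strand in GRCm38.p6, with these motifs in capitals, as an example of a strong muscle domain (linc-Myh and Nctc1) and of a CpG-rich host promoter (Snhg1).
linc-Myh promoter: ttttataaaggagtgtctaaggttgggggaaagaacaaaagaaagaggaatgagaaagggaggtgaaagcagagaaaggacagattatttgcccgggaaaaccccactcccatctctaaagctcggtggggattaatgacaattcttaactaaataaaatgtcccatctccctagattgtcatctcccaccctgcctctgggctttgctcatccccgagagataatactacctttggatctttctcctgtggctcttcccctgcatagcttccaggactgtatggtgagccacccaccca
Nctc1 promoter: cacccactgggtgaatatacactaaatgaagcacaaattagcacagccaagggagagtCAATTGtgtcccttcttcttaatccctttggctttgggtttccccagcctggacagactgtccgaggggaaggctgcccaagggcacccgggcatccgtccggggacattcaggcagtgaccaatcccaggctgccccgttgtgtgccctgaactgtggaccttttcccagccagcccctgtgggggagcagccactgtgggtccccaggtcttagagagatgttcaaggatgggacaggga
Snhg1 promoter: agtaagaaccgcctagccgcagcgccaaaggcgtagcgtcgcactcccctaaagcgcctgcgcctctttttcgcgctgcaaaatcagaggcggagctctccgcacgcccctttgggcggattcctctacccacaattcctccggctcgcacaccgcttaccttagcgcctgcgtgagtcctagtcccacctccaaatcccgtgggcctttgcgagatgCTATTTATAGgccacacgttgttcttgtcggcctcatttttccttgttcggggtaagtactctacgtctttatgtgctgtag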

How the data were processed

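H3K27ac ChIP-seq tables of quadriceps were used, 1 per group, with 2 H3K27ac libraries and 1 input each. Per the labels and methods, the authors mapped reads to mm10 with Bowtie (1.2 in the submitters' processing notes), used HOMER to call peaks on the pooled H3K27ac libraries against the group's input at 2-fold and a false discovery rate of 0.05, and gave each peak its nearest gene. The deposited signal per peak is the tag coverage of both libraries per 10000000 tags, and 100% of values were whole tags within 0.051, where 1 tag is 0.226 in the control and 0.232 in the detrained table. The deposited log2 values per library were regularized by the authors with DESeq2 within HOMER, which shrinks them at weak peaks. Of the authors' comparison with input, the fold and adjusted p-value were used only as a filter in an alternative.

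Pooled tags were shared between libraries in proportion to total tags and 2 to the power of the log2 value, because the tables give no counts per library, so spread within a group is understated at weak peaks. Density added 0.5 tags. A call required both detrained libraries on 1 side of both controls. The control columns could be assigned to the group but not to a numbered mouse. Peaks in promoters were those the authors' annotation named. Members and gene lists were chosen with earlier results of these data known. Named were genes of 6 lists, the 5 strongest peaks per list, the 3 highest and lowest ratios and the genes with most peaks, and 2 genes and the peaks past 1.5-fold on 3 scales after values were seen. The pairing and calling steps were run on simulated peaks with the same borders in both lists. That run did not cover borders that differ between lists, or the sharing of tags by log2 values. RefSeq GRCm38.p6 gave sequences and coordinates. Computations used matplotlib 3.10.9, pandas 2.3.3, numpy 2.4.6, scipy 1.17.1 and Python 3.11.15.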

Additional observations from a re-analysis of the deposited data

How the results depend on the processing

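No paired analysis was possible because the sample titles number the H3K27ac libraries 1 and 2 in each group while the control columns read 2 and 3, and no control column was tied to a numbered sample, so the replicate block was not run. The spread of 2 libraries per group and peak borders set separately in each list limit every difference, and weak peaks rest on few tags.

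The counts by RNA type fell with the filter on peaks and, except for snoRNAs in control mice, fell further with the distance limit. With a minimum of 4-fold over input and an adjusted p under 0.001, noncoding RNA peaks numbered 2933 in control and 3206 in detrained mice, which turns the order of the groups. By type these were 661 and 727 for microRNAs, 27 and 27 for snoRNAs, 21 and 19 for hosts, whose order did not turn, and 2224 and 2433 for other noncoding RNAs. Within 10 kb of the start 1827 and 1592 were counted, of which 480 and 382 were at microRNAs, 28 and 24 at snoRNAs, 18 and 15 at hosts and 1301 and 1171 at other noncoding RNAs. The share overlapping the other list was 86.8% of control and 78.8% of detrained peaks for strict peaks. It was 77.7% and 75.9% (control and detrained) for equal numbers of top peaks, and both settings turn the order of the groups. It was 73.9% and 83.6% within 10 kb and 62.7% and 69.3% with 50% of the peak covered. The promoter share was 9.14% and 8.39% for strict peaks and 5.81% for the top control peaks, against 5.73% in detrained mice. Both turn the order of the groups. It was 18.9% and 20.7% within 10 kb and 4.40% and 4.90% by distance alone. Median log2 density of all listed noncoding RNA peaks was 4.62 in control and 4.74 in detrained mice. It was 5.26 and 5.17 for strict peaks and 4.78 for the top control peaks, which turn the order of the groups too. It was 4.83 and 4.95 within 10 kb, 5.18 and 5.59 per peak, and 4.62 to 4.65 and 4.73 to 4.76 without each library.

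The median log2 ratio of shared peaks was 0.032 when scaled to tags in listed peaks and ran from -0.060 to 0.022 without each library. In tags per peak 252 were higher by 1.5-fold (7.43%, against 5.52% of all shared peaks) and 191 lower (5.63%, against 5.10%). With all overlapping peaks summed, a setting chosen after seeing the data, 219 were higher (6.45%, against 4.76%) and 163 lower (4.80%, against 4.34%). With 80% of each peak covered 255 lay above (17.4%, against 16.5% of all shared peaks) and 307 below (20.9%, against 23.7%). Of these, 7 were higher by 1.5-fold (0.477%, against 0.263%) and 9 lower (0.614%, against 0.645%). With any 1-bp overlap 72 were higher by 1.5-fold (1.87%, against 1.85%) and 108 lower (2.81%, against 2.83%). Input subtraction gave 122 lower. A minimum of 50 pooled tags gave 462 above and 549 below, 20 and 36 by 1.5-fold, strict peaks 21 and 37, and peaks within 10 kb 219 and 254, with 9 and 25. At a lower fold than 1.5 the counts were 285 and 366 and at 2-fold 0 and 1. Fewer peaks entered where a filter was set. For these filters and other folds no share over all shared peaks is given, so those counts are not set against a background. Without each library, 1030 to 1333 lay above (30.4% to 39.3%, against 28.8% to 38.7% of all shared peaks). Below lay 1175 to 1525 (34.6% to 44.9%, against 35.9% to 45.5%). By 1.5-fold 52 to 89 were higher (1.53% to 2.62%, against 1.31% to 2.44%) and 80 to 139 lower (2.36% to 4.10%, against 2.21% to 4.09%).

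Among the 54 named shared peaks, those whose groups did not overlap were followed for a change of sign, which 12 showed in tags per peak, 12 with all overlapping peaks summed and 0 under any other setting, although at 80% coverage 32 and at 1-bp overlap 49 of the 54 could be followed. Peaks with overlapping groups are not in these counts, and some changed sign too, as H19 (-0.054 without C2), Mir1a-2 (0.028 without C3) and Mir181a-1 (-0.22 without Ex1). The values were the same on both scales for Airn (-0.14), E030011O05Rik (-0.027), Gas5 (-0.087), Jpx (-0.21), Mir181a-2 (-0.41), Mir199a-1 (-0.20), Mir21a (0.43), Mir222 (0.11), Mir26a-1 (0.12), Pvt1 (-0.00013) and Snhg15 (0.073), and for Dleu2 they were -0.23 and -0.10. Peak length enters the main scale and not these, by construction.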

Other observations

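The share of peaks nearest to a noncoding RNA gene differed between chromosomes in the same way in both lists. It was highest on chromosome 12, at 21.4% of control and 21.3% of detrained peaks, and on chromosome 13, at 21.3% and 20.6%. It was lowest on the X chromosome, at 7.08% and 6.92%, leaving aside the Y chromosome, which had 6 peaks in each list.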
